A study of Mus musculus with 2 samples.

Results

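The transcription factors of memory precursor and stem-like CD8+ T cells were examined in OT-I cells with and without retroviral overexpression of Eomes. The 8 factors, a list made with earlier results of these data known, were found by gene symbol: *Tcf7*, *Lef1*, *Bcl6*, *Bach2*, *Foxo1*, *Myb*, *Satb1* and *Foxp1*. All 8 were among the 14732 gene symbols listed for at least 1 library. CD8+ T cells were isolated from lymph nodes and spleen of C57BL/6 mice, 6 to 8 weeks old, with the OT-I transgene, whose T cell receptor sees the SIINFEKL peptide of ovalbumin. Cells of both groups were first activated for 24 h with 2.5 ng/mL of the peptide plus 10 U/mL of IL-2. Spinoculation was then done for 90 min with retrovirus and, in both groups, 6 ug/mL of polybrene. The virus carried either the empty RVKM vector, with human CD2 behind an IRES (control, labelled Ctrl), or the same vector with Eomes. Human CD2+ cells were sorted 48 h later, plated at 40000 per well and given the same peptide and IL-2 again for 3 days. Both groups are therefore activated, transduced and restimulated T cells, and neither is a naive or a memory population. Each group is 1 library, and no replicate error can be given for any difference between them. The number of mice behind each library is not given in the sources used here.

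Memory and stem-like CD8+ T cells are kept by a set of DNA-binding proteins that hold back effector genes and keep genes of survival and lymph node homing on. TCF1, encoded by *Tcf7*, and LEF1 share an HMG box and pair with beta-catenin or with TLE corepressors. FOXO1 and FOXP1 are forkhead proteins, the first an activator of *Il7r* and *Tcf7* that AKT moves out of the nucleus, the other a keeper of T cell quiescence. BACH2 is a bZIP repressor that pairs with small MAF proteins. BCL6 is a zinc finger repressor that opposes Blimp-1, MYB supports self-renewal, and SATB1 organizes chromatin in T cells.

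The part of the coding sequence in which *Tcf7* and *Lef1* are closest is shown because these related genes differed most in what follows. It lies in the HMG box. Over 120 bases the transcripts had 99 identical bases (82.5%), and capitals mark the 21 that differ. The *Tcf7* stretch comes from 2 exons on the minus strand of mm10, chr11:52256809-52256847 and chr11:52256949-52257029. The *Lef1* stretch comes from 2 exons on the plus strand, chr3:131194707-131194787 and chr3:131200295-131200333.
Tcf7: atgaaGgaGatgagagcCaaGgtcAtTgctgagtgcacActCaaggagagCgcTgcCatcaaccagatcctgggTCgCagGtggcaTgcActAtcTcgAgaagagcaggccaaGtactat
Lef1: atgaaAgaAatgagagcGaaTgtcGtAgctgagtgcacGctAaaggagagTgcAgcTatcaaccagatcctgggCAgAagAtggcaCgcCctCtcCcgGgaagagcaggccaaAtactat
The longest run that the longest coding transcripts of *Tcf7* and *Lef1* share without a difference is 17 bases, so any longer read tells them apart. Over the 28 pairs of members such runs were 11 to 48 bases long. Of 21 annotated genes that overlap a member, 7 of them on the opposite strand, none was listed in either library. That they are not listed does not show that none of their reads were counted for a member.

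*Tcf7* stood apart from the other members, with a level 3.26 times lower in Eomes-overexpressing cells, while the other 6 members that could be compared differed by at most 1.21-fold. The expression values are RPKM, read numbers scaled by the authors to transcript length and library depth and named FPKM in the files, so levels of different genes can be compared. Members that reached 1 RPKM in either library are called expressed here. Among these 6, 1 was more than 1.5-fold lower (*Tcf7*) and none was more than 1.5-fold higher. *Tcf7* reached 1 RPKM in control only, the library in which it was higher, and with a minimum of 5 RPKM it was left out and 0 members were lower. Its count, its place among expressed genes and its share of neighbours all depend on that. Over all 9925 expressed genes, 5.19% were more than 1.5-fold lower and 2.46% more than 1.5-fold higher. A log2 ratio (Eomes-overexpressing over control) under 0 was found for 2 of the 6 expressed members and for 50.5% of all expressed genes. A log2 ratio above 0 was found for 4 of the 6 and for 49.2% of all. The median log2 ratio was 0.13 over the 6 members and -0.0037 over all expressed genes. *Eomes* itself was at 2.47 RPKM in the control library and 129.6 RPKM in the other, and the files do not separate reads of the vector from those of the gene.

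**Figure D1:**
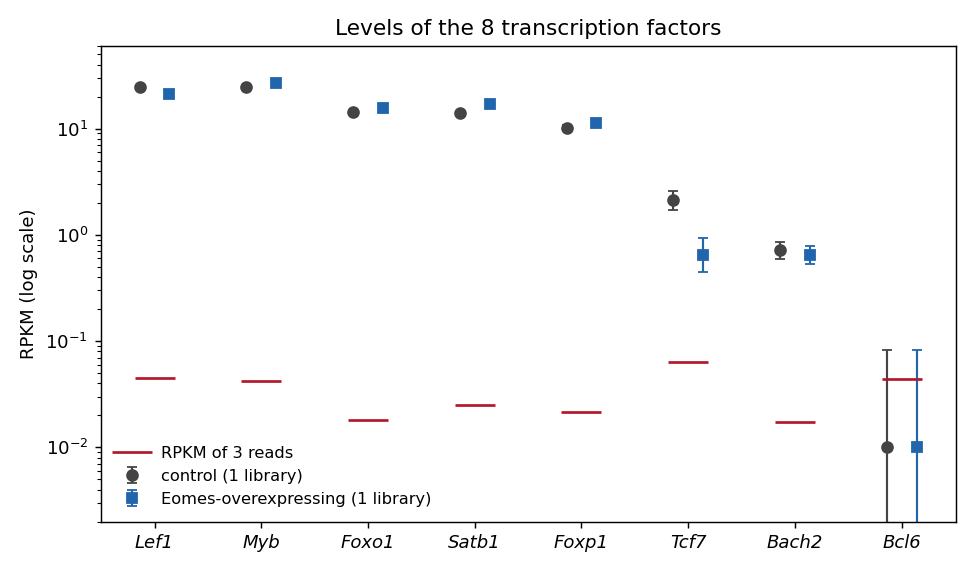
RPKM of the 8 transcription factors on a log axis, with circles for control and squares for Eomes-overexpressing OT-I cells (1 library each). Bars are exact 95% Poisson intervals on approximated reads, which cover counting error only, and red dashes give the RPKM of 3 reads in control. Only the *Tcf7* symbols are clearly apart (2.12 and 0.65), and *Bcl6*, at 0.01 in both libraries, lies under its dash.

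The reads behind each value were approximated, because the files hold no counts. Low RPKM values fall on steps worth 1 read each. From those steps in genes with a single annotated transcript, the depth was 19280000 reads (control) and 19120000 reads (Eomes-overexpressing). With other choices of genes it lay between 18860000 and 19660000 reads. Reads of a member then follow from RPKM, depth and the length of its longest coding transcript. For each log2 ratio the 95% Clopper-Pearson interval (exact binomial) of those reads is given. It holds counting error alone, so it sets 1 library against the other and says nothing of the spread between cultures.

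*Tcf7* lies on the minus strand of chromosome 11 (mm10, chr11:52252371-52283014). It was at 2.12 RPKM (control) and 0.65 RPKM (Eomes-overexpressing). These values rest on few reads, about 101 and 31. The log2 ratio was -1.71 with an interval of -2.32 to -1.10, and of -2.44 to -0.97 if the reads came from the shorter coding transcript of 1742 bases. In the order of all 9925 expressed genes by falling log2 ratio, *Tcf7* was at position 9891. Of the 500 expressed genes nearest to it in mean level, 1.0% had a lower log2 ratio, and the central 95% of them lay between -1.30 and 0.90. *Tcf7* was the only 1 of the 6 expressed members outside the central 95% of its neighbours. The genes most like *Tcf7* over the 2 libraries, by distance in log2 RPKM, were *Lif*, *Cd83* and *Matk*. *Lif*, which encodes a cytokine of the IL-6 family, had an RPKM of 2.15 and 0.69. For *Cd83*, a surface protein of activated lymphocytes and dendritic cells, RPKM was 2.35 and 0.62. These are total RNA values of whole cultures, in which fewer cells with a transcript and less of it per cell cannot be told apart.

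*Lef1* (plus strand, chr3:131110471-131224356) was far more abundant than *Tcf7* and differed much less. It was at 24.6 RPKM (control) and 21.2 RPKM (Eomes-overexpressing), from about 1649 and 1409 reads. The log2 ratio of -0.22 (interval -0.32 to -0.11) is beyond counting error but within the spread of its 500 neighbours in level (-0.46 to 0.42). The intervals of the *Tcf7* and *Lef1* ratios do not overlap. *Lef1* was thus 11.6 times the level of *Tcf7* in control and 32.6 times in Eomes-overexpressing cells.

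The forkhead factors were both higher by a small amount in Eomes-overexpressing cells, *Foxp1* within counting error once GC content was taken into account (below). *Foxo1* (plus strand, chr3:52268336-52353221) was at 14.4 RPKM (control) and 15.7 RPKM (Eomes-overexpressing), with a ratio of 0.13 on the log2 scale (interval 0.04 to 0.21). *Foxp1* (minus strand, chr6:98925338-99522721) was at 10.2 and 11.4, a log2 ratio of 0.17 (interval 0.06 to 0.27). *Foxp1* has 12 coding transcripts in the basic annotation, and with the shortest of them (1848 bases) the interval ran from -0.04 to 0.38 and included 0. Both ratios lay inside the central 95% of genes of similar level, with 71.0% of the neighbours lower than *Foxo1* and 73.8% lower than *Foxp1*.

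*Myb* and *Satb1* were also higher in Eomes-overexpressing cells. For *Satb1* this stayed beyond counting error once GC content was taken into account (below), and for *Myb* it did not. *Myb* (minus strand, chr10:21124935-21160984) was at 24.5 RPKM (control) and 26.9 RPKM (Eomes-overexpressing), with a ratio of 0.13 on the log2 scale (interval 0.04 to 0.23). *Satb1* (minus strand, chr17:51736187-51833290) was at 14.1 and 17.0, a log2 ratio of 0.27 (interval 0.18 to 0.37). This ratio, 1.21-fold, was the highest of the 7 members compared, and 90.2% of the 500 genes nearest in level had a lower ratio. In the order of expressed genes *Satb1* was at position 1398, *Foxp1* at 2408, *Myb* at 2795 and *Foxo1* at 2881, while *Lef1* was at 8071.

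The repressors *Bach2* and *Bcl6* were the least abundant members and did not reach an RPKM of 1. *Bach2* (plus strand, chr4:32238804-32586108) was at 0.72 RPKM (control) and 0.65 RPKM (Eomes-overexpressing). Its log2 ratio of -0.15 was within counting error (interval -0.53 to 0.23 from about 123 and 110 reads). With the shortest coding transcript (3462 bases) the interval widened to -0.78 to 0.48. No difference in *Bach2* beyond counting error was therefore seen at this depth. The first interval lies within 1.5-fold (a log2 ratio of 0.58 either way), and the second passes it downward. *Bcl6* (minus strand, chr16:23965052-23988852) was listed at 0.01 in both libraries, which is about 1 read. A count of 3 reads would give 0.0441 RPKM in control and 0.0445 RPKM in Eomes-overexpressing cells, so no ratio is given for *Bcl6*.

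**Figure D2:**
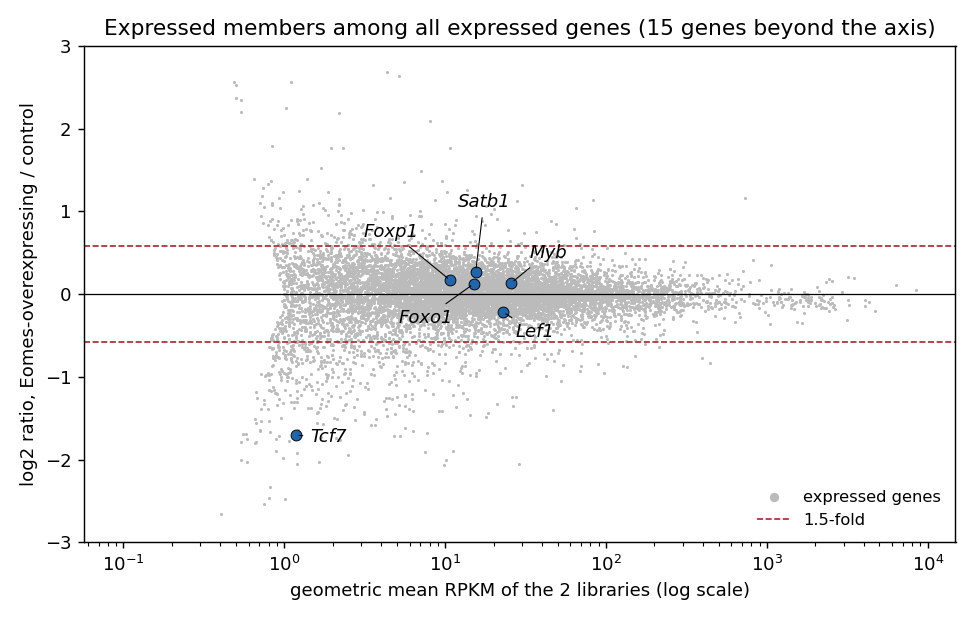
Log2 ratio (Eomes-overexpressing over control) against the geometric mean RPKM for the 9925 expressed genes in gray, with the 6 expressed members in blue and 1.5-fold as dashed lines. *Tcf7* lies at -1.71 near the low end of abundance, where ratios spread most, and the other members lie between -0.22 and 0.27.

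The 8 members summed to 90.6 RPKM (control) and 93.5 RPKM (Eomes-overexpressing). Most of it came from *Lef1* and *Myb*, which held 27.1% and 27.05% of it in control. The share of *Tcf7* was 2.34% in control against 0.695% under Eomes overexpression. By level, *Lef1* and *Myb* led in control with overlapping Poisson intervals, followed by *Foxo1* and *Satb1*, which also overlapped. *Foxp1*, *Tcf7*, *Bach2* and *Bcl6* came next, each below the one before it by more than counting error. In Eomes-overexpressing cells *Myb* was above *Lef1* without overlap (26.9 and 21.2), and *Satb1* and *Foxo1* overlapped at 17.0 and 15.7. *Tcf7* and *Bach2* were both at 0.65 there, so *Tcf7* no longer stood above *Bach2*. Measured as the share of listed genes with a lower RPKM, *Tcf7* went from 37.4% to 27.2% and *Lef1* from 76.8% to 73.9%, whereas *Satb1* went from 66.4% to 69.9%. For the other members, the genes with the most similar pair of RPKM values were *Ppm1f*, *Tmem219* and *Dhrs7* for *Lef1*, *Nbeal2*, *Uba3* and *Urm1* for *Myb*, and *Pus10*, *1810030O07Rik* and *Dcakd* for *Foxo1*. They were *Ankrd44*, *Ahctf1* and *Zfr* for *Satb1*, *Rbm34*, *Mars2* and *Nt5c2* for *Foxp1*, and *Cebpd*, *Acrbp* and *Ago3* for *Bach2*. With only 2 libraries many genes share nearly the same pair of values, and *Cebpd* had exactly those of *Bach2*.

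GC content of the transcripts moved with the direction of the expressed members. The 4 expressed members with a ratio above 0 had a GC content of 44.8% (*Satb1*), 44.9% (*Foxp1*), 47.0% (*Myb*) and 48.5% (*Foxo1*), below the median of 50.2% over expressed genes. *Lef1* and *Tcf7* were above it, at 51.4% and 52.3%. *Bach2*, which was not expressed by the limit used, went the other way, with a GC content of 49.0% and a log2 ratio of -0.15. All expressed genes of similar GC content had a median log2 ratio of 0.10 for the group of *Satb1* and *Foxp1*, 0.07 for that of *Myb* and 0.02 for that of *Foxo1*. After these medians were subtracted, the log2 ratios were 0.17 for *Satb1*, 0.11 for *Foxo1*, 0.06 for *Foxp1* and 0.06 for *Myb*. *Tcf7* was at -1.64 and *Lef1* at -0.15 after the same step, so no expressed member changed sign. With their intervals shifted by the same medians, *Myb* (-0.03 to 0.16) and *Foxp1* (-0.04 to 0.17) were within counting error. The shifted interval was 0.08 to 0.26 for *Satb1*, 0.02 to 0.19 for *Foxo1* and -0.26 to -0.05 for *Lef1*.

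**Figure D3:**
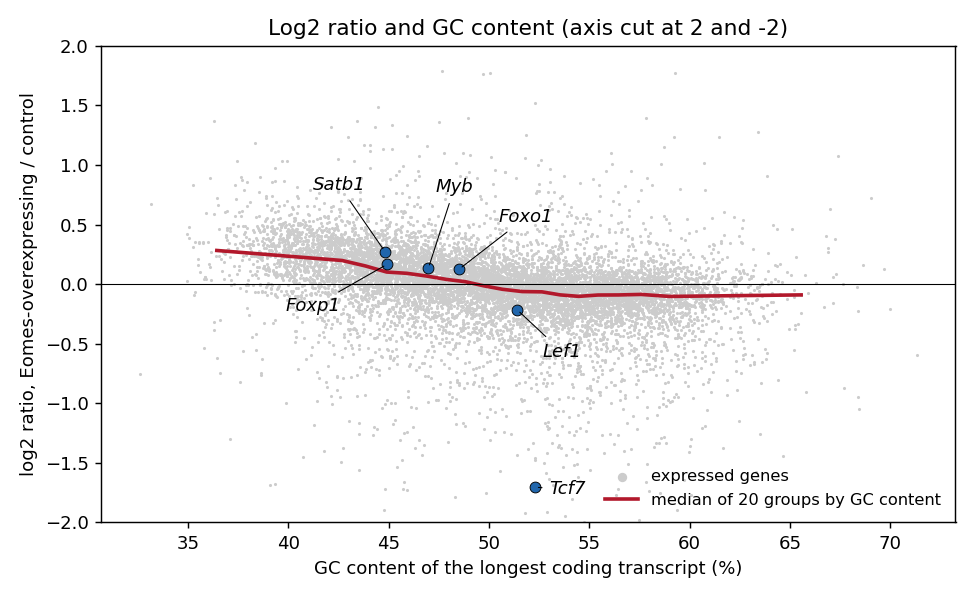
Log2 ratio against GC content of the longest coding transcript for the expressed genes (gray), with the median of 20 groups of genes ordered by GC content as a red line and the 6 expressed members in blue. *Satb1*, *Foxp1*, *Myb* and *Foxo1* lie in the left part, where the red line is above 0, and *Tcf7* lies far below the line.

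No expressed relative of the members was past 1.5-fold. Of 13 genes of the same families, 5 were expressed, with log2 ratios between -0.48 and 0.50. Over all expressed genes, 5.19% were more than 1.5-fold lower and 2.46% higher. For so few genes, a count of 0 is near those shares and sets the relatives apart from no other genes. Without a minimum RPKM, 2 relatives were more than 1.5-fold lower and 1 higher. *Foxo3*, a forkhead factor with roles that overlap those of FOXO1, was at 11.1 RPKM (control) and 7.93 RPKM (Eomes-overexpressing), so *Foxo1* was 1.30 times *Foxo3* in control and 1.98 times in Eomes-overexpressing cells. *Foxp4* had a log2 ratio of -0.46 and *Bach1*, which binds the same sites as BACH2, of 0.50. *Mybl2*, a Myb relative of cycling cells, was at 50.7 and 53.5, about 2.07 and 1.99 times the level of *Myb*. *Tcf7l1* (0.28 and 0.30) and *Tcf7l2* (0.01 and 0.03), the other TCF genes, did not reach the level of *Tcf7* in either library.

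Genes that work with TCF1 and LEF1 were past 1.5-fold about as often as all expressed genes. Of 24 partners and inhibitors, 19 were expressed, of which 1 was past 1.5-fold downward and 0 upward, against 5.19% and 2.46% of all expressed genes, and their median log2 ratio was 0.0024. The lower gene was *Tle1*, a corepressor of TCF/LEF factors, with 7.39 RPKM (control) and 4.55 RPKM (Eomes-overexpressing), a log2 ratio of -0.70. Its relative *Tle3* was at 19.1 and 21.5. *Ctnnb1*, which encodes beta-catenin, was at 64.0 and 74.8, a log2 ratio of 0.23. *Axin2*, a target of beta-catenin signaling, was under an RPKM of 1 in both libraries (0.60 and 0.47).

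Partners of the other members and the kinases that act on FOXO1 held 1 gene past 1.5-fold. All 18 partners of BCL6, BACH2, MYB, SATB1 and FOXP1 were expressed and within 1.5-fold, with log2 ratios between -0.51 (*Hdac5*) and 0.35 (*Ncor1*). Over all expressed genes, 5.19% were more than 1.5-fold lower and 2.46% higher. In the kinase pathway of FOXO1, 1 of 19 expressed genes was more than 1.5-fold lower and 0 higher. That gene was *Pik3ip1*, an inhibitor of PI3K, with an RPKM of 2.50 and 1.63 (log2 ratio -0.62). It was within 1.5-fold after GC centring (-0.55) and with 1 RPKM added, and it was left out with a minimum of 5 RPKM. *Akt1*, which encodes a kinase that phosphorylates FOXO1, was at 184.0 and 185.9.

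Memory-associated genes that are not transcription factors included several past 1.5-fold. Of 20 such genes 17 were expressed. Of these, 7 were lower by more than 1.5-fold and 1 was higher, against 5.19% and 2.46% of all expressed genes. Their median log2 ratio was -0.44, and that of all expressed genes -0.0037. Of the 7 lower genes, 3 (*Tnfsf8*, *Tnfrsf25* and *Dapl1*) reached 1 RPKM in control only, and with a minimum of 5 RPKM 2 genes of the list were lower. This list was made with earlier results of these data known, and no test compares it with the factors. *Ccr7*, the receptor for lymph node homing, was at 41.9 RPKM (control) and 16.4 RPKM (Eomes-overexpressing). *S1pr1*, the receptor for exit from lymph nodes, was at 3.66 and 1.6. Lower genes also included *Cd200*, *Tnfsf8*, *Tnfrsf25* and *Dapl1*, the last at 3.33 in control and not listed for Eomes-overexpressing cells, at least 12.2-fold lower against a floor of 3 reads (0.274 RPKM). *Il7r*, a target of FOXO1, was at 9.98 and 9.12, a log2 ratio of -0.13, where that of *Foxo1* was 0.13. *Ly6c2* was higher (12.4 and 25.9), and its reads can be shared with the near-identical *Ly6c1*.

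**Figure D4:**
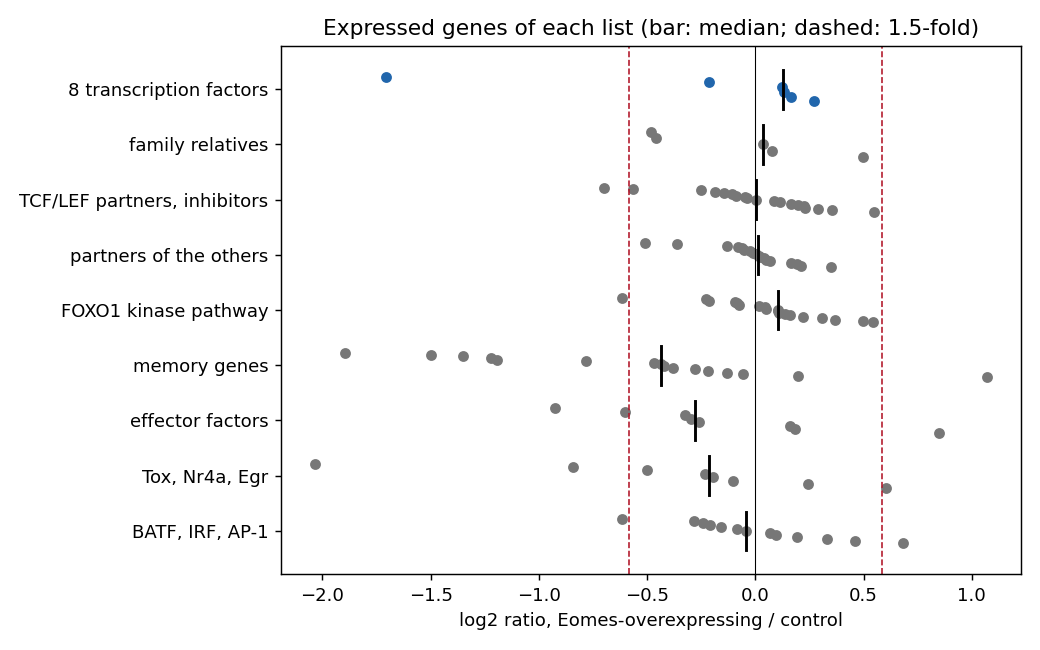
Log2 ratios (Eomes-overexpressing over control) of the expressed genes in each list, 1 point per gene, with the median as a black bar and 1.5-fold as dashed lines. *Dapl1*, not listed for Eomes-overexpressing cells, is counted in the median but not drawn. *Tcf7* lies at -1.71 and the other expressed members between -0.22 and 0.27, and no test compares the lists.

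Other groups of T cell transcription factors held a few genes past 1.5-fold, several of them close to that limit. Over all expressed genes, 5.19% were lower and 2.46% higher by more than 1.5-fold. Among 8 expressed effector differentiation factors, 2 were lower (*Tbx21* and *Stat4*, the latter by 1.52-fold) and 1 higher (*Nfil3*), and their median log2 ratio was -0.28. *Prdm1*, which encodes Blimp-1, the counterpart of BCL6, was at 15.0 RPKM (control) and 17.0 RPKM (Eomes-overexpressing), and thus far above *Bcl6* in both. Among 8 expressed Tox, Nr4a and Egr factors, 2 were lower (*Tox* and *Egr3*) and 1 higher (*Nr4a3*), with a median of -0.21. Of 13 BATF, IRF and AP-1 factors, 1 was lower (*Irf1*) and 1 higher (*Fosl2*), with a median of -0.05. After GC centring, and likewise with 1 RPKM added, *Nr4a3* and *Irf1* were within 1.5-fold. *Stat4* was within it with 1 RPKM added and when scaled to the summed RPKM. *Tox*, at 3.32 and 0.81, had the lowest log2 ratio of these 3 lists, -2.04, and reached 1 RPKM in control only.

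The 250 bases before each RefSeq transcription start of the members (build GRCm38.p6, the assembly of mm10) were searched for binding motifs on both strands. The 8 members have 19 such windows, some of which overlap each other. The T-box motif GGTGTGA, the kind of site that Eomes and T-bet bind, was found in 1 of the 19 windows, that of *Myb*, and in 3.33% of all 32851 windows of the same length. The TCF/LEF motif CTTTGA was found in 4 of the 19 windows (13.8% of all windows) and the ETS motif GGAAGT in 4 (19.7%). MYB motifs (AACGG) were in 4 windows, against 14.5% of all, and 2 of these share 1 match because they overlap. RUNX (TGTGGT), FOXO (GTAAACA) and AP-1 (TGACTCA) motifs were in none, against 14.1%, 3.17% and 4.46% of all windows. A match is only a run of letters, and a missing match says nothing about binding elsewhere at the gene.

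Windows of 3 members are shown with motif matches in capitals, *Tcf7* because its level differed, *Lef1* for its TCF/LEF matches and *Myb* for the T-box match. For *Tcf7* the window is also that of an internal start, inside the annotated gene. Only the 116 bases next to that start are given (chr11:52282596-52282711, minus strand), which hold no annotated exon. They include the ETS match at 26 to 21 bases before the start, on the other strand. The ETS match at 139 to 134 lies in the part left out. For *Lef1* the window of an internal start is given (chr3:131156044-131156293, plus strand), with TCF/LEF matches on the other strand at 180 to 175 and 120 to 115 bases before the start and an ETS match at 12 to 7. For *Myb* (chr10:21160985-21161234, minus strand) the T-box match is at 250 to 244 bases before the start.
Tcf7: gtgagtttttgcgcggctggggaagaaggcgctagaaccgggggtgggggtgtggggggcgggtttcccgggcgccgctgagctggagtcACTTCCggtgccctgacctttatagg
Lef1: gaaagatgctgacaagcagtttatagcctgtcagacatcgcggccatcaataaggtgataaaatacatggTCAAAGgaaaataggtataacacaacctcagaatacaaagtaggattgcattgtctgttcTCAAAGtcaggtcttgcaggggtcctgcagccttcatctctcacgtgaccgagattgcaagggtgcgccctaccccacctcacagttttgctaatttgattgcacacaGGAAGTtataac
Myb: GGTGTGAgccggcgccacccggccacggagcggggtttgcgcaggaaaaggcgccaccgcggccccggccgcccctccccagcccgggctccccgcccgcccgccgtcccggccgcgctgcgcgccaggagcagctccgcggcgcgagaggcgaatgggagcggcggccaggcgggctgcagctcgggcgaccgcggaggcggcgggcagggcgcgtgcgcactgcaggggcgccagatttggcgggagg
The *Myb* window has a GC content of 81.2% and 40 CpG sites, and that of the internal *Lef1* start 44.8% and 5. Both windows of *Tcf7* lack the T-box letters. In the window at chr11:52283015-52283264, however, the bases from atgccgcagctggactcg onward read as codons with no stop codon up to its end. That window can therefore hold coding bases of a longer *Tcf7* transcript in place of a promoter. Bases further upstream were not searched, so the T-box motif was not tested in the promoter of such a transcript.

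The labelled cell type was checked against its markers, whose levels are given because they also differed. All 5 CD8+ T cell markers were listed at high levels, 978.1 RPKM (control) and 720.0 RPKM (Eomes-overexpressing) in sum. Each of the 5 was lower, as were 50.5% of all expressed genes, *Cd8a* the most (181.8 and 99.1, log2 ratio -0.88). Only *Cd8a* was more than 1.5-fold lower, as were 5.19% of all expressed genes. Of 5 B cell markers, *Ms4a1* and *Pax5* were not listed and the others summed to 2.87 and 1.62, nearly all from *Cd79b*. Of 5 myeloid markers, *Lyz2*, *Csf1r* and *Adgre1* were not listed and the others summed to 1.40 and 1.28. *Cd4* was at 0.03 and 0.08, and the 3 helper T cell markers summed to 14.2 and 11.8, mostly from *Zbtb7b*. Of 3 NK cell markers, *Ncr1* was not listed, while *Klrb1c*, which encodes NK1.1, was at 0.31 and 5.74. The part of these marker differences in the *Tcf7* difference was not tested.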

How the data were processed

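Total RNA of restimulated control or Eomes-overexpressing OT-I cells was sequenced as 1 library each. The authors filtered the reads with SOAPnuke, mapped them with HISAT and Bowtie2 to mm10 and computed expression with RSEM. FPKM values, 1 per gene symbol, were deposited by the authors, printed with 2 decimals from 0.01 upward and named RPKM in their methods. Versions are not given in the sources used here.

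Log2 ratios (Eomes-overexpressing over control) were taken in Python 3.11.15. Tables were handled with pandas 2.3.3 on numpy 2.4.6, intervals came from scipy 1.17.1 and figures from matplotlib 3.10.9. Values not listed were set to 0.01. A gene was called expressed when either library reached 1 RPKM, and differences were counted past 1.5-fold. With 1 library per condition no test was made. Symbols turned into dates (20 and 19) were left out. Lengths, GC content and positions came from GENCODE vM21 (mm10), with a length for 99.6% of the symbols, and promoters from RefSeq (GRCm38.p6). All 8 members matched both.

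Depth was taken as the value at which low RPKM values of genes with a single transcript of 300 to 1500 bases come closest to whole reads, with 124 genes for control and 140 for Eomes. Of these, 76.6% and 75.0% lay within 0.25 reads of a whole number. The depth was chosen for that closeness in the same genes, so these shares do not test it. On the score used, which rises as values near whole reads, the chosen depth had 0.44 (control) and 0.45 (Eomes). The best score at a clearly different depth was 0.34 and 0.27. Depth, ratio and threshold steps were tested on simulated data. Those were built from whole reads and the same transcript lengths that the depth step uses. They therefore do not test for errors in length or for reads split between transcripts. The members and gene lists were chosen with earlier results of these data known. Named genes were the members, *Eomes*, the 3 genes nearest to each member in log2 RPKM, and genes of the lists past 1.5-fold or needed to describe a list. The alternatives tried were 0.1 or 1 RPKM added to every value, a minimum of 0 or 5 RPKM, a 2-fold limit, 3 scalings and centring by GC content. Intervals cover counting error only. Some genes of the lists are counted but not reported here by name.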

Additional observations from a re-analysis of the deposited data

How the results depend on the processing

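The direction of all 7 members with a ratio was the same under each alternative in which it was computed. With 1 RPKM added to both libraries the log2 ratio of *Tcf7* was -0.92, still past 1.5-fold. With a minimum of 5 RPKM *Tcf7* was no longer counted, which left 0 members more than 1.5-fold lower and 1 with a log2 ratio under 0. Centring by GC content gave 0.17 for *Satb1*, 0.06 for *Foxp1* and *Myb*, and 0.06 for the median of the members (0.13 without it). It also took *Pik3ip1*, *Irf1* and *Nr4a3* within 1.5-fold and put *Ctbp2*, a corepressor, past it (0.64). Adding 1 RPKM took genes within it that included the same 3 and *Stat4*, and left 13 past it. Against the deposited values, a trimmed mean, the summed RPKM (TPM) and the median of expressed genes gave a common log2 shift of -0.01, -0.03 and -0.0037. With TPM 1 effector factor, in place of 2, was past 1.5-fold downward. Over the other gene lists together, leaving out marker lists, 18 genes were past 1.5-fold, 28 without a minimum RPKM, 11 with a minimum of 5 RPKM (2 memory genes lower, in place of 7) and 8 past 2-fold. *Tcf7* rests on about 31 reads in Eomes-overexpressing cells. Depth leaves the direction of *Bach2* and any ratio of *Bcl6* undecided. No paired analysis was possible because each condition has 1 library.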
